A study of Mus musculus with 32 samples.

Results

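The genes Piwil4, Piwil2, Tex15, Ago1, Ago2, Ago3, Ago4 and Dicer1, parts of the small-RNA silencing machinery, were followed in mouse sciatic nerve. They are 8 of the 45706 genes in the deposited expected-count table. Piwil4 and Tex15 were chosen by their measured levels, since both had been seen to be higher in nerves carrying the C3-PMP22 transgene, and the other 6 by family name. The differences of Piwil4 and Tex15 that involve the transgene are therefore described without a test. All 8 passed the filter on low counts, Piwil4 through its levels in the transgenic groups. Piwil4 was 13.2-fold higher in C3-PMP22 than in wild-type (WT) nerves and Tex15 was 2.93-fold higher. At this depth and number of libraries none of the other 6 genes, Piwil2, Ago1 to Ago4 and Dicer1, passed the test (edgeR adjusted p under 0.05) in any comparison. Between 0% and 1.38% of all tested genes passed, depending on the comparison, so 0 among 6 is close to the background.

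PIWI proteins are the Argonautes of the germ line, where they bind short piRNAs and silence transposons. In the fetal mouse testis PIWIL4 (MIWI2) works in the nucleus, and TEX15 is a nuclear partner that PIWIL4 needs to direct DNA methylation to transposon promoters, while PIWIL2 (MILI) acts in the cytoplasm and makes the piRNAs that load PIWIL4. The ubiquitous Argonautes AGO1 to AGO4 bind microRNAs instead, which DICER1 cuts from their hairpin precursors, and AGO2 is the member with a potent slicer activity. Loss of Dicer from Schwann cells is known to arrest myelination in mice.

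The libraries were poly(A) RNA of whole sciatic nerves from mice 6 months old, in 4 genotypes: WT (7 libraries), Sipa1l2-/- (9), C3-PMP22 (8) and C3-PMP22::Sipa1l2-/- (8, called double mutant below). C3-PMP22 mice carry extra copies of the human PMP22 gene and model the demyelinating neuropathy CMT1A, and Sipa1l2 was tested as a modifier of that disease. Both sexes were present in each group, but the 5 libraries of double mutant females all had plain numbers as column names and the 3 of males all had numbers with the prefix G, so sex and number series cannot be told apart in that group. Nothing in the labels says which cells drive the transgene or what was removed from Sipa1l2.

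Library totals ran from 11030976 to 16990990 counts. Sipa1l2 was not lower in the libraries labelled as knockouts: its lowest, median and highest levels were 65.2, 73.4 and 122 CPM (counts scaled to library size) for WT, 55.0, 93.8 and 138 CPM for the label Sipa1l2-/-, 57.7, 82.3 and 133 CPM for C3-PMP22, and 43.6, 71.7 and 149 CPM for the double mutant label. Directions drawn from these 2 labels below rest on the labels alone. Transcripts that mark sex matched the label in 30 of 32 libraries, the exceptions being C3-PMP22 7 and 8, whose summed skeletal muscle markers were among the highest of that group. The 8 markers of myelinating Schwann cells were present in each group, with a summed level of 12467 to 26856 CPM in WT nerves and 4458 to 22599 CPM in double mutant nerves. In whole nerve, fewer cells of a type and less RNA per cell cannot be told apart.

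Piwil4 (ENSMUSG00000036912) lies on the minus strand of chr9:14696230-14740733 (GRCm38). The promoter is shown because Piwil4 had the largest difference of the 8 genes, beside that of Ago3, a microRNA Argonaute whose level did not pass the test. Both are RefSeq windows (GRCm38.p6) from 250 bases before to 50 after the start, printed 5′ to 3′ on the gene's strand: chr9:14740623-14740922, minus strand, and chr4:126429493-126429792, minus strand. Capitals mark matches to the EGR motif GCGTGGG and to the GC box GGGCGG, searched on both strands.
Piwil4: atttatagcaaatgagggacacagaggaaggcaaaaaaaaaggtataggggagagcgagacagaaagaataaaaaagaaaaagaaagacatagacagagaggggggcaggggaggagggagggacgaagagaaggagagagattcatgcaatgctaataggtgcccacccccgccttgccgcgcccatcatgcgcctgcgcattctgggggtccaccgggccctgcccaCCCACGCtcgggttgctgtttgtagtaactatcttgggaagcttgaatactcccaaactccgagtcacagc
Ago3: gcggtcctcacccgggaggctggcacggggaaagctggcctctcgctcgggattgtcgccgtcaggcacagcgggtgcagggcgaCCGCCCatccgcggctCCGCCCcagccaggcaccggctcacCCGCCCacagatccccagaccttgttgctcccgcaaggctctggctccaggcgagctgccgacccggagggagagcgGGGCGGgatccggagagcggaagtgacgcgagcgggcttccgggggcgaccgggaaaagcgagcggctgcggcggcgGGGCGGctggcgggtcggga
The printed Piwil4 window held 11 CpG pairs and 52.7% G and C, against medians of 7 CpG and 52.7% over 32851 promoters, whereas the Ago3 window held 37 CpG pairs and 74.7% G and C. The Piwil4 window had 1 EGR match, found in 5.04% of all promoters, and no GC box, which 35.7% of all promoters hold. It also had 1 match to the TATA box letters (TATAAA, in 13.6% of all promoters) and 1 E-box (CANNTG, in 72.3%). The TATAAA match lay on the opposite strand at base 2 of the window, far upstream of the start. A second Piwil4 window starts inside the gene (chr9:14718338-14718637, minus strand) and held 0 CpG pairs, no EGR match and no GC box, but 1 A-MYB match (AACNGTT, in 4.45%), 1 AP-1 match (TGANTCA, in 7.81%) and 1 E-box. Neither window held the letters searched for SOX (ACAAAG or ACAATG), NRF1 (GCATGCG) or the CCAAT box. Other forms of these motifs were not searched, so this does not show that the windows lack such sites. The files do not say which start was used in nerve. The Ago3 window had 5 GC boxes and no match to the letters searched for the other motifs. The Ago1, Ago4 and Dicer1 windows held 31 to 54 CpG pairs, so the 4 microRNA genes with a sequence in the table had more CpG pairs at their starts than either Piwil4 window. These matches describe letters and do not show binding. The sequence table held windows for 5 of the 8 genes, and Tex15, Piwil2 and Ago2 were not among them.

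Piwil4 was barely counted in nerves without the transgene. In WT nerves its lowest, median and highest levels were 0.280, 0.474 and 0.651 CPM, which is 4 to 10 counts a library. In the libraries labelled Sipa1l2-/- they were 0, 0.471 and 0.718 CPM, and the library at 0 allows up to 0.296 CPM (3 counts of its TMM-scaled total, counting error only). In C3-PMP22 nerves they were 3.67, 5.78 and 10.1 CPM, or 41 to 131 counts. Each C3-PMP22 library stood above each WT library.
In double mutant nerves the lowest, median and highest Piwil4 levels were 1.41, 3.17 and 18.9 CPM, the widest spread of any group. Even so, the lowest double mutant library stood above the highest WT library and the highest library labelled Sipa1l2-/-. Over the tested genes, 0.208% had C3-PMP22 ranges wholly above WT, 0.273% had double mutant ranges wholly above WT and 0.11% had double mutant ranges wholly above Sipa1l2-/-. These shares are given as background, since the same contrasts chose the gene.

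**Figure D1:**
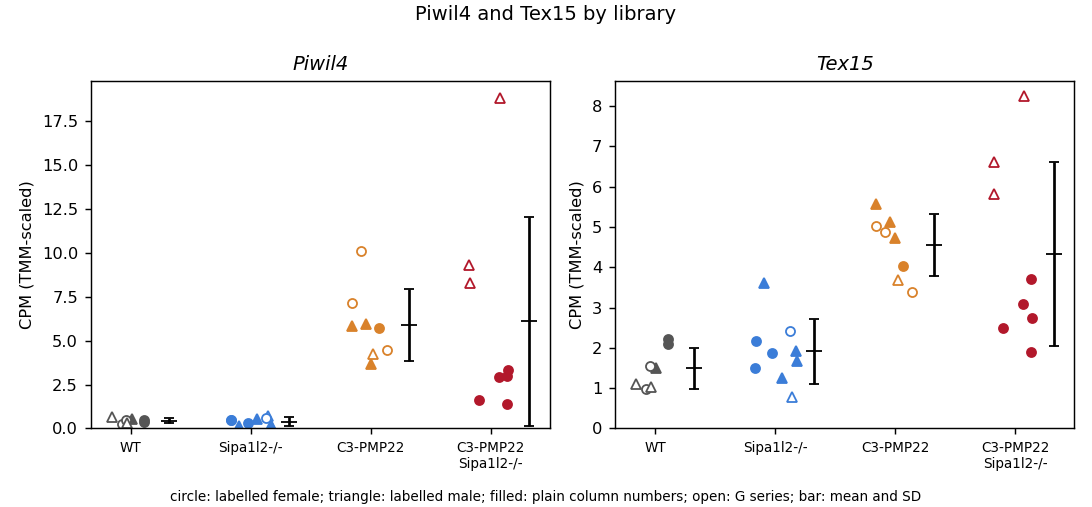
Piwil4 (left) and Tex15 (right) in CPM scaled by TMM, 1 symbol per library and 4 genotypes on the x axis, with mean and SD beside each group. Piwil4 lies at or below 0.718 CPM in all libraries without the transgene and at 1.41 CPM or more in all with it, and in the double mutant the open triangles (males with G numbers) lie above the filled circles (females with plain numbers).

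On the log2 scale Piwil4 was 3.73 ± 0.49 (SE, n = 8 and 7) higher in C3-PMP22 than in WT, from group means of 5.89 ± 2.04 and 0.446 ± 0.134 CPM (SD). Against the same WT nerves the double mutant was 3.61 ± 0.50 higher (mean 6.10 ± 5.94 CPM, SD, n = 8), a value that shares its controls with the first. Against the libraries labelled Sipa1l2-/- (mean 0.383 ± 0.242 CPM, SD, n = 9), the double mutant was 3.86 ± 0.46 higher, and that comparison shares no library with C3-PMP22 against WT. Leaving out C3-PMP22 7 and 8 gave 3.64 for C3-PMP22 against WT, with a mean of 5.93 ± 2.26 CPM (SD, n = 6).

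The Sipa1l2 label made no difference to Piwil4 that passed the test. Piwil4 differed by -0.24 ± 0.53 (SE) between Sipa1l2-/- and WT (edgeR adjusted p = 0.978), with a 95% interval from -1.33 to 0.84. It differed by -0.11 ± 0.40 between double mutant and C3-PMP22 (adjusted p = 0.923), with an interval from -0.93 to 0.71. That value pools opposite signs: on the mean log2 CPM scale it was -1.11 with plain numbers and 0.88 with G numbers. The interaction, which compares the transgene difference with and without the Sipa1l2-/- label, was 0.13 ± 0.65 (adjusted p = 0.958). The order of the group medians was thus C3-PMP22, double mutant, WT and Sipa1l2-/-, and neither the upper pair nor the lower pair differed beyond its spread. The intervals are wide, and they do not show that the paired groups are alike. Piwil4 had 0 to 10 counts a library in Sipa1l2-/- and 20 to 224 in the double mutant, the group with the widest spread. What widens the intervals was not tested. No gene of the 15403 tested passed in any of these 3 comparisons with edgeR, where 802, 1242 and 987 genes had an unadjusted p under 0.05, and DESeq2 called 0, 11 and 3 genes.

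Tex15 (ENSMUSG00000009628, plus strand, chr8:33516738-33585582, GRCm38) was counted at a low level in every nerve. Its lowest, median and highest levels were 0.979, 1.49 and 2.22 CPM in WT and 0.790, 1.87 and 3.61 CPM in the libraries labelled Sipa1l2-/-. They were 3.38, 4.80 and 5.57 CPM in C3-PMP22 nerves and 1.91, 3.40 and 8.25 CPM in double mutant nerves. C3-PMP22 did not overlap with WT, but the double mutant overlapped with both groups that lack the transgene.
Tex15 was 1.55 ± 0.29 (log2, SE, n = 8 and 7) higher in C3-PMP22 than in WT, with means of 4.55 ± 0.767 and 1.50 ± 0.508 CPM (SD). The double mutant was 1.46 ± 0.29 higher than the same WT nerves and 1.16 ± 0.26 higher than the libraries labelled Sipa1l2-/- (means 4.33 ± 2.28 and 1.91 ± 0.800 CPM, SD, n = 8 and 9). The value for C3-PMP22 against WT was 1.53 without C3-PMP22 7 and 8. The Tex15 difference was smaller on the log2 scale than that of Piwil4 in each of the 3 comparisons.
For the Sipa1l2 label, Tex15 differed by 0.31 ± 0.28 (SE) between Sipa1l2-/- and WT (edgeR adjusted p = 0.961). It differed by -0.09 ± 0.26 between double mutant and C3-PMP22 (adjusted p = 0.903), and the interaction was -0.40 ± 0.38 (adjusted p = 0.774). None of these passed.

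The double mutant libraries fell into a high and a low set for both genes. The 5 females with plain numbers had 1.41, 1.61, 2.94, 3.00 and 3.34 CPM of Piwil4, and the 3 males with G numbers had 8.30, 9.31 and 18.9 CPM. The same females had 1.91 to 3.72 CPM of Tex15 and the same males 5.83 to 8.25 CPM. No double mutant female reached the lowest double mutant male in either gene. In C3-PMP22, libraries labelled female had 4.47 to 10.1 CPM of Piwil4 and those labelled male 3.67 to 5.94 CPM, so the labelled sexes overlapped. Of the 4 labelled female, C3-PMP22 7 and 8 had sex-linked transcripts against that label.
The myelinating Schwann cell markers split the double mutants in the same way. Their summed level was 4458 to 10335 CPM in the 5 females and 18323 to 22599 CPM in the 3 males, and their part in the split was not tested. The myelin score, the mean centred log2 CPM of those 8 markers, was also used as a term in the fit. With it Piwil4 was 3.62 higher in C3-PMP22 than in WT and 3.93 higher in the double mutant than in WT. Tex15 was 1.55 and 1.61 higher. No WT library scored below -0.27, while double mutant scores reached -1.50, so the double mutant values extrapolate beyond the WT scores. Over all genotypes, Piwil4 differed by 0.51 ± 0.33 (log2, SE) between labelled males and females (edgeR adjusted p = 0.454). Tex15 differed by 0.26 ± 0.19 (edgeR adjusted p = 0.526), where 1.34% of all tested genes passed. The double mutant's labelled sex goes with its number series in this fit.
Within the libraries with plain numbers, Piwil4 was 3.11 higher in C3-PMP22 than in WT on the mean log2 CPM scale, and within the G series 3.49 higher. Tex15 was 1.27 and 1.74 higher. For double mutant against Sipa1l2-/-, the same differences were 2.62 and 3.81 for Piwil4 and 0.48 and 2.16 for Tex15. The Tex15 difference between the double mutant and Sipa1l2-/- was smaller in the plain series (n = 5 and 7) than in the G series (n = 3 and 2). For double mutant against C3-PMP22 the signs were opposite in the plain series (n = 5 and 4) and the G series (n = 3 and 4). The values were -1.11 and 0.88 for Piwil4 and -0.79 and 0.69 for Tex15. Both genes were chosen by their transgene difference, and series and sex coincide in the double mutant. These values are a description and no check of the series.

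**Figure D2:**
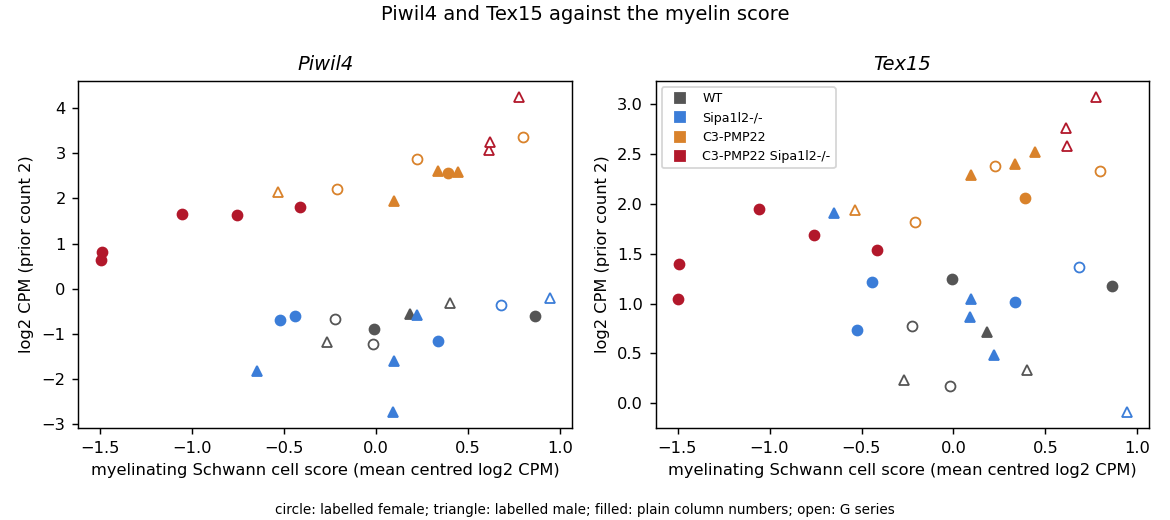
Level of Piwil4 (left) and Tex15 (right) in log2 CPM against the myelinating Schwann cell score, 1 symbol per library, coloured by genotype. For Piwil4 all transgenic libraries lie above all others. The 5 double mutant females with plain numbers lie at scores from -1.50 to -0.42. No library without the transgene scored below -0.65, so the lowest scores allow no comparison.

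Within a genotype, the 2 genes and the marker scores were compared in 15 relations over WT, Sipa1l2-/- and C3-PMP22. The double mutant was left out of these because its 8 libraries form a pair of clusters with fewer than 6 each. The closest relation was that of Piwil4 with the myelin score in C3-PMP22 (Pearson r = 0.78, exact permutation p = 0.0255, Spearman rho = 0.71, exact permutation p = 0.0576, n = 8), and r was 0.59 without the 2 libraries farthest from the median score. After adjustment over the 15 relations its p was 0.380 for r and 0.361 for rho by the exact permutation test, so none passed. Piwil4 and Tex15 had r = 0.47 in C3-PMP22 (exact permutation p = 0.241, adjusted 0.650, n = 8), and r was 0.80 without the 2 farthest libraries.

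Piwil2, the other PIWI protein tested, was present at a low level in each genotype. Its lowest, median and highest levels were 1.29, 2.02 and 2.39 CPM in WT nerves and 1.51, 2.06 and 2.80 CPM with the Sipa1l2-/- label. C3-PMP22 nerves had 0.927, 2.16 and 3.57 CPM and double mutants 1.54, 2.21 and 2.78 CPM. The 4 groups overlapped. Piwil2 was 0.28 ± 0.20 (log2, SE) higher in C3-PMP22 than in WT, which did not pass (edgeR adjusted p = 0.456), and its 95% interval ran from -0.14 to 0.70. In the double mutant it differed by 0.09 ± 0.19 from Sipa1l2-/- (adjusted p = 0.999, interval -0.30 to 0.48).
Compared per length, Piwil4 was the scarcer of these PIWI transcripts in all nerves without the transgene and the more abundant one in most nerves with it. The ratio of Piwil4 to Piwil2 was 0.240 ± 0.0717 in WT and 0.180 ± 0.113 in Sipa1l2-/-, against 3.25 ± 3.07 in C3-PMP22 and 2.69 ± 2.18 for double mutants (SD, n = 7, 9, 8 and 8). Single libraries ran from 1.58 to 10.7 in C3-PMP22 and from 0.633 to 6.66 for double mutants. With the longest transcript as the length the mean ratios were 0.363, 0.273, 4.92 and 4.08 in the same order of groups. The remaining PIWI gene, Piwil1 (MIWI, which acts in later spermatogenesis), had mean levels of 0.306 to 0.527 CPM by group and was too low to test.

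Ago1 and Ago2 were the most abundant of the microRNA Argonautes per length in each genotype. The Ago2 levels (lowest, median, highest) were 126, 139 and 155 CPM for WT, 130, 137 and 163 CPM for Sipa1l2-/-, 111, 144 and 190 CPM for C3-PMP22, and 112, 131 and 137 CPM for double mutants. Those of Ago1 were 72.1, 88.4 and 100.5 CPM for WT, 79.9, 87.8 and 99.5 CPM for Sipa1l2-/-, 64.1, 82.5 and 91.4 CPM for C3-PMP22, and 64.0, 82.9 and 90.3 CPM for double mutants. Neither gene's groups separated in any comparison.
Ago3 and Ago4, which sit beside Ago1 on chromosome 4, were lower. Ago3 had group means of 55.4 ± 3.00 CPM for WT, 58.1 ± 6.95 for Sipa1l2-/-, 58.7 ± 6.01 for C3-PMP22 and 56.1 ± 6.91 for double mutants (SD, n = 7, 9, 8 and 8). Ago4 had 11.3 ± 1.20, 10.9 ± 2.13, 10.4 ± 0.846 and 10.9 ± 1.46 CPM in the same order. Dicer1, the enzyme upstream of all 4, had 84.4 ± 7.35, 88.4 ± 9.42, 94.7 ± 17.6 and 86.7 ± 5.45 CPM.

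**Figure D3:**
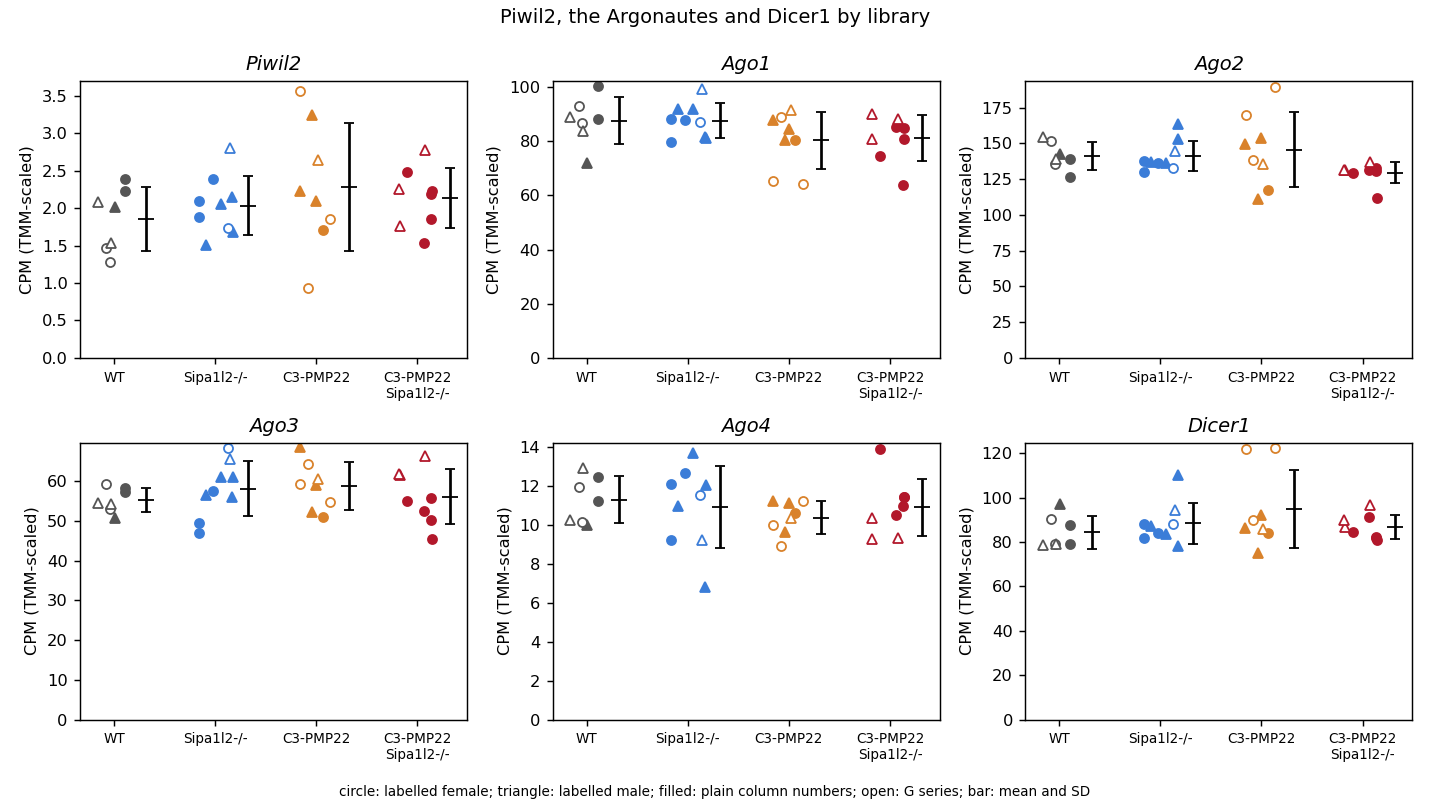
Levels in CPM scaled by TMM of Piwil2, Ago1 to Ago4 and Dicer1 by genotype, 1 symbol per library with mean and SD beside each group and y axes from 0. The 4 genotypes overlap in each of the 6 genes.

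In C3-PMP22 against WT the log2 fold changes were -0.13 ± 0.08 for Ago1, 0.04 ± 0.08 for Ago2, 0.07 ± 0.08 for Ago3, -0.11 ± 0.11 for Ago4 and 0.17 ± 0.09 for Dicer1 (SE, n = 8 and 7), with edgeR adjusted p between 0.317 and 0.805. With Piwil2, 0 of the 6 genes passed, where 0.688% of all tested genes did, so that a count of 0 among 6 is close to the background. At an unadjusted p under 0.05 the 6 genes also gave 0, where 18.1% of all tested genes were under it. The highest 95% bound of the 5 microRNA genes was 0.35, for Dicer1, and the lowest was -0.34, for Ago4. The signs of Ago2, Ago3 and Dicer1 turned to -0.15, -0.09 and -0.03 when libraries were scaled by their totals, a change that moved the median of all tested genes from 0.04 to -0.12.
In the double mutant against Sipa1l2-/-, 0 of the 6 passed, where 0.721% of all tested genes did. The log2 fold changes of the microRNA genes ran from -0.12 ± 0.08 for Ago2 to -0.02 ± 0.10 for Ago4 (SE, n = 8 and 9), with edgeR adjusted p between 0.784 and 0.999. Against WT the double mutant gave -0.12 ± 0.08 for Ago2, -0.11 ± 0.08 for Ago1 and 0.04 ± 0.09 for Dicer1, and 0 of the 6 passed (edgeR adjusted p between 0.529 and 0.944), where 1.38% of all tested genes did. In Sipa1l2-/- against WT the 5 microRNA genes lay between -0.04 and 0.07. At an unadjusted p under 0.05 the 6 genes gave 0 in both double mutant comparisons, where 8.68% of all tested genes were under it against Sipa1l2-/- and 14.7% against WT. The smallest unadjusted p among the 6 genes in any genotype comparison was 0.0489, for Ago2 in the double mutant against C3-PMP22 (-0.17 ± 0.08, edgeR adjusted p = 0.606), where 8.06% of all tested genes were under 0.05.

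**Figure D4:**
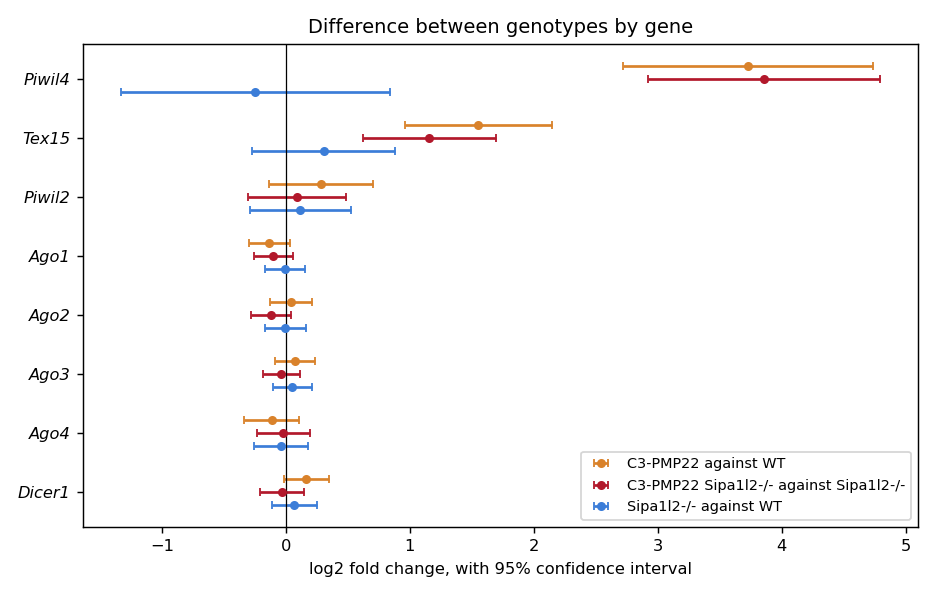
Log2 fold change with its 95% confidence interval (x axis) for each of the 8 genes (y axis) in 3 comparisons of genotypes. In both comparisons with the transgene the points lie to the right, at 3.73 and 3.86 for Piwil4 and 1.55 and 1.16 for Tex15. Piwil4 and Tex15 were chosen by that difference, so their intervals there are a description and no test. The intervals of the other 6 genes cross 0.

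C3-PMP22 7 and 8, the libraries whose sex-linked transcripts went against their label, were the 2 highest of that group in Ago2 and Dicer1 and the 2 lowest in Ago1. They had 190 and 170 CPM of Ago2, 122 and 122 CPM of Dicer1 and 64.1 and 65.2 CPM of Ago1. In Ago3, at 54.7 and 59.3 CPM, they lay inside the range of the other 6 libraries. Their skeletal muscle scores were 4.57 and 3.92, the highest of the group, and the part of muscle in these levels was not tested. Without them Ago2 was 134 ± 17.1 CPM and Dicer1 85.6 ± 5.87 CPM in C3-PMP22 (SD, n = 6), and the differences from WT were -0.12 and -0.01 on the log2 scale. Over the 32 libraries with genotype means subtracted, Ago2 and Dicer1 had r = 0.74. Piwil4 had r = 0.45 with Tex15, 0.38 with Ago3, 0.37 with Ago1, 0.13 with Piwil2, 0.03 with Dicer1, -0.11 with Ago2 and -0.35 with Ago4, values that share libraries and are given as a description.

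Per length of the union of exons, the WT order was Ago1 (10.8 ± 1.07 CPM per kb, SD, n = 7), Ago2 (10.1 ± 0.688), Dicer1 (5.04 ± 0.439), Ago3 (3.34 ± 0.181), Ago4 (1.62 ± 0.173), Piwil2 (0.351 ± 0.0802), Tex15 (0.156 ± 0.0527) and Piwil4 (0.0828 ± 0.0249). Of the neighbours in this order, Ago1 and Ago2 overlapped within 1 SD, as did Tex15 and Piwil4. With the longest annotated transcript as the length the order was the same, but the WT levels of Dicer1 and Piwil4 were 8.57 and 0.135 CPM per kb. In C3-PMP22 the level per length was 1.09 ± 0.379 for Piwil4 and 0.473 ± 0.0797 for Tex15 (SD, n = 8), so that Piwil4 moved from the lowest of the 8 to above Piwil2 and below Ago4 (1.49 ± 0.122). With the longest transcript as the length this order turned, with 1.78 CPM per kb for Piwil4 and 1.59 for Ago4, so the order of these 2 genes in C3-PMP22 depends on the length used. Piwil4 remained a small part of the Argonaute pool: as a percent of the summed level of Ago1 to Ago4 per length it was 0.322 ± 0.0978 in WT and 0.274 ± 0.170 in Sipa1l2-/-, against 4.35 ± 1.52 in C3-PMP22 and 4.53 ± 4.20 for double mutants (SD). With the longest transcripts these percents were 0.490 ± 0.150, 0.418 ± 0.258, 6.64 ± 2.30 and 6.89 ± 6.39 in the same order. The summed level of Ago1 to Ago4 itself was 25.8 ± 1.52 CPM per kb in WT and 25.3 ± 1.77 in C3-PMP22.

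The wider pathways were counted from 4 lists. Of 27 genes for PIWI proteins and piRNA biogenesis, 9 passed the filter on low counts. Piwil4 is 1 of them and is left out of the counts below, since the same contrasts chose it. Of the other 8, 0 were called in C3-PMP22 against WT, where 0.688% of all tested genes were. Their median log2 fold change was -0.21, against 0.04 over all tested genes. The other genes of that list named by their level were Tdrd7 (-0.16 ± 0.09, edgeR adjusted p = 0.318) and Tdrkh (-0.19 ± 0.18, adjusted p = 0.586), both Tudor-domain partners of PIWI proteins. Of the 18 that could not be tested, Btbd18, Gtsf1l and Gtsf2 had no count in any library, which allows up to 0.00704 CPM over the series (3 counts). Mov10l1, a helicase needed to make piRNAs in the mouse testis, had 1 count in all 32 libraries, and Gtsf1, a cofactor of PIWI proteins, had 2. Most of the germ line's piRNA genes were thus too low in nerve to test.
In the double mutant against Sipa1l2-/-, 0 of the 8 were called, where 0.721% of all tested genes were, and their median was -0.18. Without the transgene, in Sipa1l2-/- against WT, the 9 tested genes (Piwil4 included) had a median of -0.15, against 0.02 over all tested genes. In labelled males against females the median of these 9 was 0.24, and 1 was called, where 1.34% of all tested genes were. In the double mutant against WT, 1 of the 8 was called, Tdrd7 (-0.35 ± 0.09, edgeR adjusted p = 0.0369), where 1.38% of all tested genes were. That call did not hold under 5 of 13 alternatives (edgeR adjusted p from 0.0544 to 0.132), nor without double mutant 1, 3, 5, 6 or 8 or WT 4, 5, 6 or 7, each left out alone (adjusted p from 0.0517 to 0.0994).
Of 20 genes for nuclear piRNA silencing and DNA methylation, 17 passed the filter, and Tex15 is left out of the counts for the same reason. Of the other 16, 0 were called in C3-PMP22 against WT (background 0.688%) and 0 in the double mutant against Sipa1l2-/- (background 0.721%). Their medians were -0.02 and -0.03, against 0.04 and -0.01 over all tested genes. The log2 fold change of Tex15 itself in the latter comparison ran from 0.99 to 1.31 when any single library was left out. That range is a description and no support, since the transgene difference chose the gene. Mbd2, a reader of methylated DNA, and Trim28, a corepressor of transposons, had the highest levels of the list and differed by -0.03 ± 0.06 and 0.02 ± 0.07 in C3-PMP22 against WT (edgeR adjusted p = 0.809 and 0.914). Spocd1, which works with PIWIL4 and TEX15 in fetal mouse germ cells, had 9 counts in all libraries, and Dnmt3l, the cofactor of de novo methylation there, averaged 0.420 CPM, and neither was tested.
Of 29 genes for microRNA biogenesis and the silencing complex, 27 were tested and 0 were called in either comparison, with medians of 0.03 and -0.02. At the background shares of 0.688% and 0.721%, a count of 0 among 27 genes is no result about the list. Hsp90ab1, the chaperone that helps load Argonautes, and Ddx5, a helicase of the Drosha complex, had the highest levels and differed by 0.24 ± 0.13 and 0.10 ± 0.07 in C3-PMP22 against WT (edgeR adjusted p = 0.318 and 0.426).
No germ cell marker passed in these comparisons. Of 24 markers, 5 could be tested and 0 were called, too few to set against those shares, and Prm1, Prm2, Stra8, Tex101 and Tnp1 had no count in any library. Their summed level had group medians from 4.43 CPM (C3-PMP22) to 5.90 CPM (double mutant). The 2 highest, Sycp3 and Meiob, both meiotic genes, differed by -1.07 ± 0.72 and 0.21 ± 0.40 in C3-PMP22 against WT (edgeR adjusted p = 0.415 and 0.805).

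**Figure D5:**
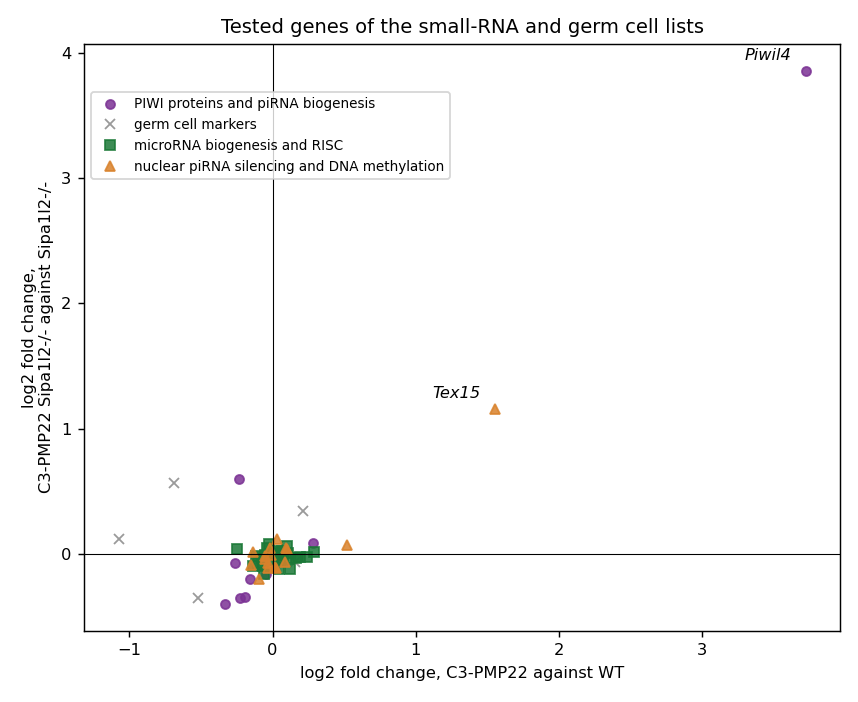
Log2 fold change in C3-PMP22 against WT (x axis) and in the double mutant against Sipa1l2-/- (y axis) for the tested genes of the 4 lists, 1 symbol per gene. Piwil4 lies at 3.73 and 3.86 and Tex15 at 1.55 and 1.16, and none of the other listed genes was called in either comparison.

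The genes next to Piwil4 and Tex15 did not pass the test. Fut4, 7.59 kb away, and Ankrd49, Amotl1 and Cwc15 are the nearest tested genes beside Piwil4, and Ppp2cb, Ubxn8, Purg and Wrn are those beside Tex15. Their log2 fold changes in C3-PMP22 against WT ran from -0.19 to 0.37, with edgeR adjusted p of 0.115 or more, and none of the 8 was called in any comparison. A minus-strand gene such as Piwil4 is overlapped by the antisense model Gm10706, and no source used here says whether counting used the strand. Gm10706 itself reached at most 0.286 CPM in any library.

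Over the 32 libraries and 13280 genes, the levels most like Piwil4 were those of Emid1 (Pearson r = 0.94 of log2 CPM), Kcnj10 (0.94, a glial potassium channel), Ppp2r2c (0.91), Cuedc2 (0.90) and Sema4f (0.88, a semaphorin). Tex15 stood 26th in that order with r = 0.82. The levels most like Tex15 were those of Lrat (0.83), Piwil4 (0.82), Snx16 (0.82), Kcnj10 (0.81) and Emid1 (0.81). These values share libraries and carry the genotype difference: in C3-PMP22 against WT, Emid1 was 2.34 and Kcnj10 2.32 higher on the log2 scale.
With genotype means subtracted the neighbours changed. The closest to Piwil4 were then Gfra1 (r = 0.84, a GDNF receptor), Cyp2j9 (0.83), Gas2 (0.82), Cfap20 (0.81) and Frem1 (0.81), and Tex15 ranked 2114 with r = 0.45. The closest to Tex15 were Onecut2 (0.70), Nek11 (0.68), Diaph3 (0.65), Rab33b (0.65) and Epha6 (0.65). These values pool all 4 genotypes, including the high and low sets of double mutants, whose part in them was not tested. Within single genotypes Piwil4 and Tex15 had r = 0.32 in WT, -0.39 in Sipa1l2-/- and 0.47 in C3-PMP22, none of which passed.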

How the data were processed

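Poly(A) RNA of 32 sciatic nerves was made into libraries with the KAPA mRNA HyperPrep kit and read in pairs on a NovaSeq, per the labels' protocols. The authors deposited 1 table of expected counts per Ensembl gene, and the submitters' processing notes name Trim Galore, FastQC, RSEM and the builds GRCm38 and mm10 (versions not given in the sources used here). Expected counts were rounded to whole numbers. Symbols and positions came from a GENCODE annotation of GRCm38. Genotype and sex came from the labels and the number series from the column names of the deposited table.

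Here 15403 genes passed filterByExpr (minimum count 10, minimum total 15) and were scaled by TMM and fitted with edgeR 4.0.16 (R 4.3.3) by quasi-likelihood on all 32 libraries, with genotype and labelled sex as terms. P-values were adjusted by Benjamini-Hochberg over all tested genes. The SE is the log2 fold change over the root of F. CPM uses TMM-scaled totals, and log2 CPM adds a prior count of 2. The script was tested on simulated data. Nothing in the labels says that each library came from its own mouse, so p-values measure only the spread between these libraries, which may be technical. No pair of libraries of a group agreed within sampling noise (chi-square per degree of freedom of 12.9 or more). Alternatives were DESeq2 1.42.0, other scalings, filters and terms, a replicate block, and leaving out each library. The muscle score, like the myelin score, is a mean of centred log2 CPM. The low totals of Piwil4 in nerves without the transgene limit its precision. The 8 genes, the lists, the markers and the motifs were chosen with earlier results of these data known. Besides the 8, genes were named by being called or by the 2 highest levels per length in a list, by position, or by the 5 highest correlations.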

Additional observations from a re-analysis of the deposited data

Results flagged for a closer look

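In 4 of the 32 sets of levels (8 genes in 4 genotypes), 1 library stood far from the rest by Dixon's test. Its threshold is set for about 1 in 20 sets of normal values. Here the sets share libraries, and the double mutants form a high and a low set in Piwil4. The rate of 1 in 20 is therefore no measure of chance for these flags. Piwil4 in double mutant 7, a male with a G number, was 18.85 CPM, and the next highest double mutant library had 9.307 CPM. That library had the lowest skeletal muscle score of its group, -7.35, and the highest myelin score, 0.78, and their part in this level was not tested. Ago2 in double mutant 4 was 112.1 CPM, below the next lowest at 129.3 CPM. Ago4 in double mutant 3 was 13.86 CPM, above the next highest at 11.45 CPM. Dicer1 in Sipa1l2-/- 3, the library without a Piwil4 count, was 110.3 CPM, above the next highest at 94.34 CPM.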

How the results depend on the processing

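Across 13 alternatives and 32 fits that each left out 1 library, 0 of Piwil2, Ago1 to Ago4 and Dicer1 passed in any comparison. With the sample number as a replicate block that count was 0 as well. The block is not a pairing in the design: 45 pairs with the same number had correlations of deviations from -0.56 to 0.74 (median 0.09), 22 of them over 0.1, and 7 of 32 libraries correlated best with their own number.

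Signs that turned belonged to differences that had not passed. In C3-PMP22 against WT, Ago2, Ago3 and Dicer1 were -0.15, -0.094 and -0.027 with total counts, and Ago2 and Dicer1 were -0.12 and -0.012 without C3-PMP22 7 and 8. In double mutant against WT, Ago3 was -0.050 with total counts, -0.0034 without a filter and -0.0019 without C3-PMP22 7 and 8, and Dicer1 was -0.020 with total counts. In double mutant against Sipa1l2-/-, Ago3 was 0.013 with the replicate block and 0.022 with the myelin score. Piwil4 in double mutant against C3-PMP22 was 0.041 without the sex term, 0.32 with the myelin score and 0.013 with sex from sex-linked transcripts, and Tex15 was 0.0059 with total counts and 0.057 with the myelin score. With the number series as a term, Piwil4 was 0.012 in Sipa1l2-/- against WT and -0.18 in the interaction. With the myelin score, Piwil4 was -0.071 in males against females. The cause was not tested. With single libraries left out, C3-PMP22 against WT gave -0.051 to 0.094 for Ago2. Double mutant against Sipa1l2-/- gave -0.068 to 0.012 for Ago3, -0.078 to 0.030 for Ago4 and -0.050 to 0.013 for Dicer1, and double mutant against WT gave -0.022 to 0.052 for Ago3. Piwil4 ran from -0.49 to 0.080 in double mutant against C3-PMP22 and from -0.24 to 0.34 in the interaction, and Tex15 from -0.24 to 0.017 in double mutant against C3-PMP22. Without the 2 farthest libraries, r became -0.85 for Tex15 with Piwil4 in WT. With the myelin score in Sipa1l2-/- it became -0.016 for Piwil4 and 0.26 for Tex15. With the muscle score it became 0.67 for Piwil4 in WT, -0.22 for Tex15 in Sipa1l2-/- and -0.63 for Tex15 in C3-PMP22.

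Counts over all genes moved by more than 1.5 times in some fits. In C3-PMP22 against WT, 106 called genes became 375 with DESeq2, 59 without C3-PMP22 7 and 8 and 586 with the myelin score. In double mutant against WT, 213 became 499 with DESeq2, 118 with total counts, 134 without the sex term and 857 with the myelin score. In double mutant against Sipa1l2-/-, 111 became 219 with DESeq2, 68 with only the compared groups and 321 with the myelin score. In males against females, 207 became 443 with DESeq2, 93 with the block, 81 with the muscle score and 399 with the myelin score. Leaving out 1 library gave 71 to 409 genes in C3-PMP22 against WT, with 183 without C3-PMP22 2, 231 without C3-PMP22 5 and 409 without WT 3. It gave 112 to 293 in double mutant against WT, with 112, 115 and 122 without WT 6, 5 and 4, and 126 and 141 without double mutant 2 and 8. In males against females it gave 124 to 321, the counts past 1.5 times being 124 without Sipa1l2-/- 2, 129 without double mutant 7, 137 without WT 7 and 321 without C3-PMP22 6, and in double mutant against Sipa1l2-/- 81 to 142. The background shares in the report move with these counts. The share of higher against lower calls in C3-PMP22 against WT was 58 to 48, and 30 to 78 with total counts.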
